A study of Mus musculus with 250 samples.

Results

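Breast tumors driven by an inducible Neu oncogene were compared with whole breast of matched control mice. The arrays were chosen from the sample labels by tissue and group: 25 arrays of tumor breast and 25 arrays of control breast, which are 50 of the 250 arrays of a series that also holds liver, spleen, blood cells and thymus. Tumor breast came from female FVB mice bitransgenic for MMTV-rtTA and TetO-NeuNT and was taken at a tumor size of 1 cm. Control breast came from female FVB littermates with TetO-NeuNT but without MMTV-rtTA, so both groups carry the responder transgene. Mice of both groups drank water with 2 mg/mL doxycycline and 5% sucrose from week 8 of life onward. The labels name for every array the mouse of the other group that shared its age and cage, which gave 25 pairs. They are numbered here 1 to 25, and the numbers are names only. The age at collection is not given in the sources used here. RNA of each tissue was hybridised to an Affymetrix whole-genome 3 prime array. Levels are log2 of the intensity, so a change of 1 (tumor minus matched control) is a 2-fold difference.

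In this model the MMTV promoter, which is active in mammary epithelium, drives the reverse tetracycline activator, and doxycycline lets that activator switch on NeuNT, an activated form of rat Erbb2. The Erbb2 receptor tyrosine kinase (Her2) binds no ligand of its own, pairs with Egfr or Erbb3, and signals through Ras to ERK and through PI3 kinase to Akt. Control breast is mostly a fat pad with a thin tree of ducts, and a dissected piece can also hold skeletal muscle, skin and a lymph node. The tumor group therefore differs from the controls in the activator, in the oncogene and in the make-up of the tissue. In bulk tissue, fewer cells of a type and less RNA per cell cannot be told apart.

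Of 18194 genes, 11356 were called in the tumor breast, which is 62.4% of all genes (limma with the matched pair as a block, Benjamini-Hochberg adjusted p under 0.05). Tumor levels were higher for 5477 genes (30.1%) and lower for 5879 (32.3%), and the median change of all genes was -0.03. In what follows "rose" and "fell" are used only of called genes, a list of genes is described by how many of its measured members were called in each direction, and the shares of all genes just given are the background for every such count over the 25 pairs. Counts from other sets of pairs or with covariates have a background of their own, given where each is first used. Of the genes called, 3331 were higher in at least 22 of the 25 pairs and 3258 were lower in at least 22. In all 25 pairs 271 genes were higher and 252 were lower, counted with or without a call. Among 10092 probe sets with no gene name or with several, 46.8% were called. No gene separated all 25 tumors from all 25 controls.

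Pairs 1 and 2 stood apart from the other 23 pairs in the order of their groups, and control array 4 stood apart in signal. Each array was placed on a line that runs from 0, the mean control of pairs 3 to 25, to 1, their mean tumor. The tumors of pairs 3 to 25 lay between 0.54 and 1.18, against -0.18 to 0.38 for their controls. Tumor array 1 lay at 0.62, but the array labelled control of pair 1 lay at 0.91, among the tumors. Tumor array 2 lay at 0.30, near its control at 0.19. In pair 2, then, the array labelled tumor had control-like levels, whereas in pair 1 it was the array labelled control that had tumor-like levels. Among the other pairs the nearest to the opposite group were tumors 11 (0.54), 18 (0.67) and 23 (0.75) and control 20 (0.38). Without pairs 1 and 2, 11665 genes were called (64.1%), 5614 higher (30.9%) and 6051 lower (33.3%). The 2 groups then did not overlap for 502 higher genes (2.76%) and 239 lower genes (1.31%). Control array 4 had a mean intensity of 210, against 396 to 437 on the other 49 arrays, and the lowest mean correlation with its group (0.891). Without pairs 1, 2 and 4, 5802 genes were called higher and 6516 lower, and groups did not overlap for 541 higher and 798 lower genes. Among the controls of pairs 3 to 25 this array was the lowest for 45.9% of all genes, and it sets the low end of the control range in 24 of the 36 genes whose ranges are printed. Without it the lowest control was 6.37 for Erbb2, 6.45 for Etv5, 5.31 for Hbegf, 4.56 for Col11a1 and 11.88 for Hspa5. For Acaca, Esr1, Kdr and Pnpla2 the groups overlap below but not without pair 4, and for the other printed ranges the overlap or its absence was the same without pair 4. The Gapdh 3 prime to 5 prime ratio (log2), a sign of RNA quality, moved with the groups: it was -0.27 to 1.30 (median -0.14) in tumors, against -0.13 to 2.91 (median 0.73) in controls. With it as a covariate 4277 genes were called higher and 4531 lower, and its part in the results below was not tested further. Ranges, also those just given for the ratio, are over pairs 3 to 25, changes with their standard errors are over all 25 pairs, and the change without pairs 1 and 2 follows where it is printed.

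**Figure D1:**
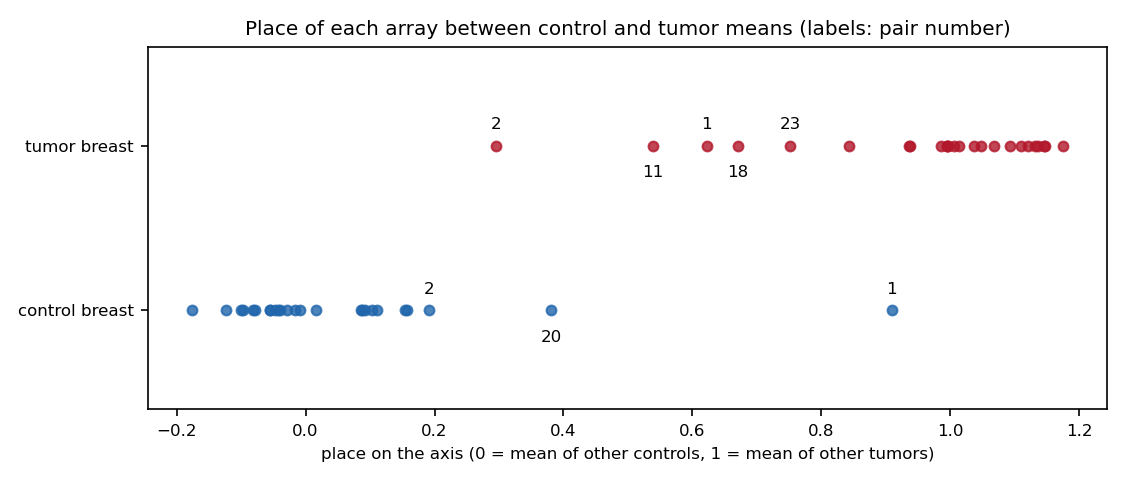
Place of each array on an axis from the mean control (0) to the mean tumor (1) of pairs 3 to 25 over all genes, with the 25 tumor arrays in the upper row, the 25 control arrays in the lower row and the pair numbers of arrays that stand apart. The tumors of pairs 3 to 25 lie between 0.54 and 1.18, to the right of all their controls, while control array 1 lies at 0.91 and tumor array 2 at 0.30.

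The non-epithelial content of the control tissue moved with several results. Means of 17 skeletal muscle genes were 5.06 to 12.08 (median 8.95) in tumors, against 5.85 to 13.70 (median 12.97) in controls, so the median control lay above the highest tumor. The labels' sample IDs were split into an earlier run (10 pairs, with pairs 1 and 2 among them) and a later run (15 pairs). The split reads digits of the IDs as month and year, with a cutoff chosen in the processing. The labels give neither that reading nor a meaning of the runs. Means of 11 B cell genes were 5.07 to 6.83 (median 5.30) in later tumors, against 5.74 to 9.38 (median 8.35) in later controls. In the other 8 pairs of the earlier run they were 5.11 to 7.14 (median 5.40) in tumors, against 5.69 to 8.83 (median 5.80) in controls. A B cell mean above 7 was found on 0 later tumors, against 13 later controls, and on 1 of those 8 earlier tumors, against 2 of their controls. Means of 14 T cell genes were 4.97 to 6.43 (median 5.34) in later tumors, against 5.59 to 9.18 (median 8.06) in later controls, and 5.21 to 7.0 (median 5.35) in earlier tumors, against 5.28 to 8.65 (median 5.52) in earlier controls. The change itself differed between the runs for 725 genes (3.98%), 331 with a higher change in the later pairs (1.82%) and 394 with a lower one (2.17%; limma on within-pair changes). Without pairs 1 and 2 that count dropped to 187. Keratinocyte genes were not part of the difference between groups: 0 of their 10 members rose and 1, Sbsn, fell, with tumor array 23 and control arrays 8 and 23 well above the rest.

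**Figure D2:**
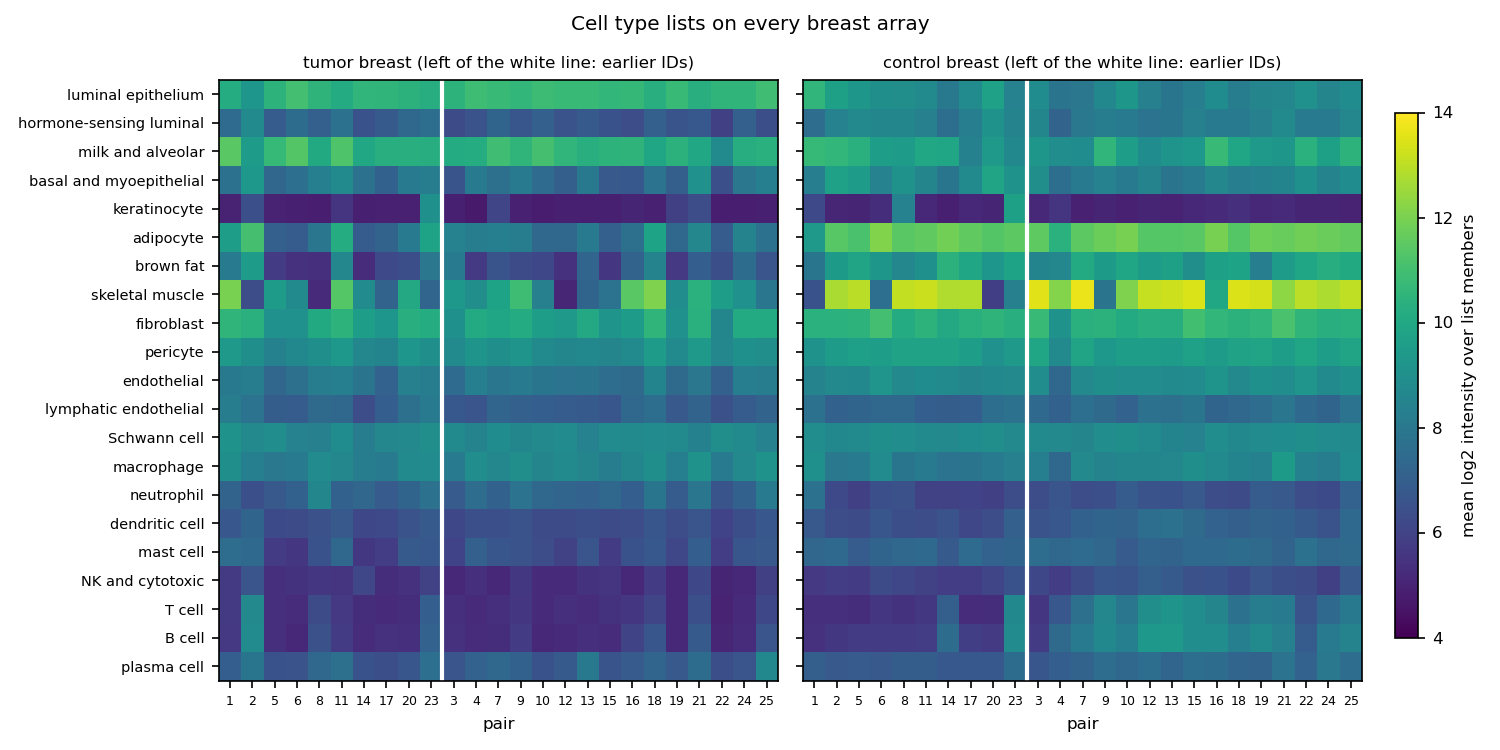
Mean level (log2 intensity, colour) of each cell type list on each array, tumors on the left and controls on the right, with pairs of the earlier sample IDs left of the white line in each panel. The adipocyte list is high on nearly all controls, the muscle list is high on most of them but under the tumor median on controls 1, 6, 9, 20 and 23, the T and B cell lists are high mainly on controls of the later run, and the luminal list is high on the tumors.

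The targeted gene was measured first. The Erbb2 probe set read 7.86 to 8.94 (median 8.40) in tumors, against 5.55 to 8.09 (median 7.04) in controls. It rose by 1.28 ± 0.15 (2.43-fold) and was higher in 23 of 25 pairs (adjusted p 2.97e-08, limma). The exceptions were pairs 1 and 2, which read 7.94 on tumor array 1 and 7.39 on tumor array 2, against 8.64 on control array 1 and 8.00 on control array 2. Over pairs 3 to 25 the within-pair change ran from 0.25 to 2.70, or to 2.26 without pair 4, so the ranges of the groups met while every pair moved upward. Whether this mouse probe set detects the rat transcript of NeuNT is not given in the sources used here.

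Among the other receptors and ligands of the family, the largest rises were in 2 ligands. Hbegf, the heparin-binding EGF-like ligand of Egfr and Erbb4, read 8.39 to 10.57 (median 9.63) in tumors, against 5.16 to 7.79 (median 5.92) in controls, and rose by 3.32 ± 0.24 (adjusted p 3.70e-11). The ranges did not overlap. Tgfa, an Egfr ligand, read 7.72 to 9.20 (median 8.45) in tumors, against 5.07 to 7.35 (median 6.09) in controls, rose by 2.19 ± 0.17 and did not overlap either. The neuregulins, ligands of Erbb3 and Erbb4, went both ways. Nrg4, which is known as a product of fat, fell (-4.04 ± 0.33), whereas Nrg1 (0.30) and Nrg2 (0.24) rose slightly. Egf fell (-1.25), and Ereg (1.65) and Epgn (1.21) rose. Of the receptors, Erbb3, the kinase-impaired partner of Erbb2, rose by 1.54 ± 0.18. Egfr (0.00) and Erbb4 (-0.11) were not called. The receptor inhibitors Errfi1 (1.29) and Lrig1 (0.93) rose. In all, 10 of the 17 measured members of the family list rose and 2 fell, with a median change of 0.30.

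Transcripts that ERK signalling is known to induce rose together, 14 of 15 with 0 lower and a median change of 1.33. Dusp6, a phosphatase of ERK, read 10.88 to 12.24 (median 11.41) in tumors, against 8.48 to 10.03 (median 9.30) in controls, and rose by 2.04 ± 0.15 (adjusted p 3.61e-11). Etv5, an ETS transcription factor, read 9.05 to 11.19 (median 10.37) in tumors, against 5.90 to 7.75 (median 7.11) in controls, and rose by 2.85 ± 0.21, or 3.09 without pairs 1 and 2. Neither gene's groups overlapped. The same held for Dusp5 (2.25), the stress-protective Ier3 (3.18), Phlda1 (2.23) and the ERK inhibitors Spred1 (1.6) and Spred3 (0.83). Spry1, Spry2 and Spry4, further inhibitors of the pathway, rose by between 0.65 and 1.16. Pair 1 shows the arrangement named above: Etv5 read 9.77 on tumor array 1 and 8.36 on tumor array 2, against 10.49 on control array 1 and 7.55 on control array 2. Immediate early genes, which serum and growth factors induce within minutes, were split, with 11 of 18 higher and 3 lower. Junb (2.16), Egr3 (1.79), Ier2 (1.45) and Jund (0.55) rose, while the phosphatase Dusp1 (-1.24) and the Krüppel-like factors Klf2 (-1.11) and Klf4 (-1.36) fell.

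**Figure D3:**
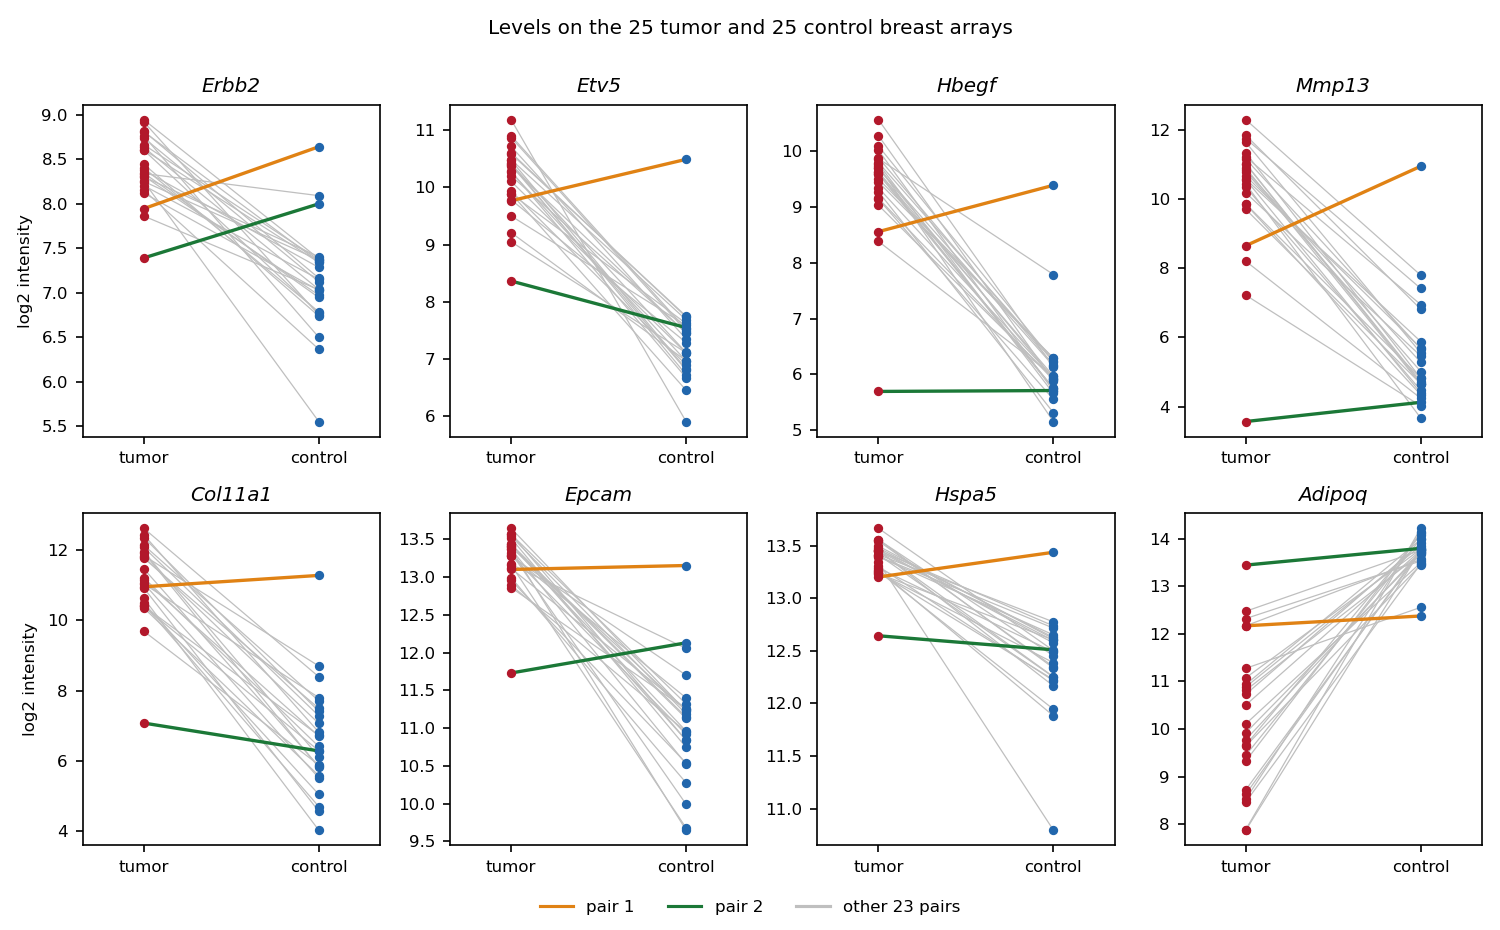
Levels (log2 intensity) of 8 genes on each array, tumors on the left and controls on the right of each panel, with lines joining matched mice and pairs 1 (orange) and 2 (green) coloured. Etv5, Hbegf, Col11a1, Epcam and Hspa5 are higher on every tumor of pairs 3 to 25 than on every control of those pairs, Adipoq is lower on every tumor, and both arrays of pair 1 lie within the range of the other tumors for Etv5, Hbegf, Col11a1 and Epcam.

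Proliferation genes were higher in the tumors. All 27 mitosis genes rose, with changes between 0.31 and 2.36 and a median of 1.75. Ect2, an exchange factor that cytokinesis needs, read 7.19 to 9.19 (median 8.33) in tumors, against 5.06 to 7.69 (median 5.68) in controls, and rose by 2.26 ± 0.16 (adjusted p 3.61e-11). Cdk1, the mitotic kinase, read 8.59 to 10.59 (median 9.38) in tumors, against 5.45 to 8.92 (median 6.82) in controls, and rose by 2.36 ± 0.21. For both the ranges of the groups met, so some controls held as much as the lowest tumors. Anln (1.85), Bub1 (2.21), Cenpf (2.08) and the cyclin gene Ccnb2 (2.33) were the next by p. With the within-pair differences of the B cell and muscle lists as covariates, an alternative added after the data were seen, 26 of the 27 were still called higher, against 15.4% of all genes higher and 17.7% lower in that fit.

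Replication genes rose in 24 of 25 cases, less far, with a median of 0.65. Rrm2, a subunit of ribonucleotide reductase, read 8.98 to 10.94 (median 9.87) in tumors, against 5.62 to 9.08 (median 7.46) in controls, and rose by 2.38 ± 0.19. Tk1, which salvages thymidine, rose by 1.87 ± 0.16, and the licensing genes Cdc6 (0.96) and Mcm4 (0.73) rose by less. Of 11 repair genes 10 rose, led by the checkpoint kinase Chek1 (1.61), the helicase Blm (0.67), Brca1 (1.27) and the exonuclease Exo1 (1.25).

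The genes of G1 control went both ways, 14 of 20 higher and 3 lower. Ccnd1, the cyclin that couples growth signals to Cdk4 and Cdk6, read 11.33 to 13.10 (median 12.12) in tumors, against 7.91 to 10.79 (median 9.61) in controls, and rose by 2.28 ± 0.20 with no overlap. The inhibitors of the cyclin-dependent kinases were divided. Cdkn2b rose by 2.20 ± 0.22, Cdkn1a by 1.92 ± 0.22 and Cdkn2a by 0.89 ± 0.11. Cdkn2c read 7.73 to 9.63 (median 8.21) in tumors, against 10.14 to 11.51 (median 11.04) in controls, and fell (-2.43 ± 0.19) with no overlap, and Cdkn1c fell (-2.45 ± 0.23). The cyclin Ccnd2 also fell (-0.81), and the factor E2f3 rose (0.68). Among targets of p53, 9 of 14 rose and 2 fell. Perp, a target that is also a desmosome component (2.04), the death receptor gene Tnfrsf10b (1.36) and the RNA-binding Zmat3 (1.40) rose with no overlap, and Plk2 (1.21) rose, while Ccng1 (-0.42) and Phlda3 (-0.47) fell.

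Promoters of the mitosis genes are shown because all 27 of these genes rose. Many mitotic promoters are known to carry a cell cycle homology region close to the start site. Its core letters TTTGAA (reverse TTCAAA) were searched on both strands from 250 bases before to 50 after each start in RefSeq's promoters of build GRCm38.p6. They occurred in 16 of the 22 mitosis genes with a promoter in the table (72.7%), against 15.7% of 14453 measured genes and 17.9% of all 32851 promoters. Of 21 replication genes 3 held them (14.3%). A match is a description of letters and not a site shown to be bound. The motif is in capitals in Ccnb2 (chr9:70421505-70421804, minus strand) and in the kinase gene Plk1 (chr7:122159185-122159484, plus strand).
Ccnb2: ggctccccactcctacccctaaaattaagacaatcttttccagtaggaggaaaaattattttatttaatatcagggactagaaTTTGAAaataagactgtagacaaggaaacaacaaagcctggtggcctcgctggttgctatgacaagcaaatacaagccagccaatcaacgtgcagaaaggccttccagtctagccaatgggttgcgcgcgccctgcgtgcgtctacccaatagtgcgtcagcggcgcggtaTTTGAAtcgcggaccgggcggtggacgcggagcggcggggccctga
Plk1: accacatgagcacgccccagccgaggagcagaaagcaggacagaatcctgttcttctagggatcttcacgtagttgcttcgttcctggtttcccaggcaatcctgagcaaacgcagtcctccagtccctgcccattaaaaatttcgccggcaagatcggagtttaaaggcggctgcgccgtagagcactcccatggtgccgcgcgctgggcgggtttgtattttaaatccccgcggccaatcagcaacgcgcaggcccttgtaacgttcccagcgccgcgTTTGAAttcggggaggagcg

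Epithelial genes were higher where they mark luminal cells in general and lower where they mark hormone-sensing cells. Of 19 genes of luminal epithelium 18 rose and none fell, with a median of 1.88, and 11 of them did not overlap between groups in pairs 3 to 25. Epcam, the epithelial adhesion molecule, read 12.86 to 13.65 (median 13.37) in tumors, against 9.65 to 12.06 (median 10.96) in controls, and rose by 2.19 ± 0.18 (adjusted p 1.17e-10). Cldn7, a tight junction claudin, read 11.07 to 12.42 (median 12.00) in tumors, against 7.49 to 10.12 (median 8.63) in controls, and rose by 3.01 ± 0.25. The protease inhibitors Spint1 (2.48) and Spint2 (1.62), Prom1 (1.88) and the epithelial regulator Grhl2 (1.75) followed, and Krt19 (-0.41) was the member not called. Junction genes rose in 15 of 19 cases and fell in 1, the connexin Gja1 (-0.30). The desmosomal cadherin Dsg2 (2.22), plakoglobin Jup (1.28), Cldn1 (2.24) and Marveld2 (2.45), a protein of tricellular junctions, had the smallest p.

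The hormone-sensing genes moved the other way, with 8 of 9 lower. Esr1, the estrogen receptor, read 8.16 to 10.01 (median 8.93) in tumors, against 9.21 to 11.26 (median 10.93) in controls, and fell (-1.66 ± 0.14, adjusted p 1.26e-10). Pgr, the progesterone receptor and an estrogen target, read 4.94 to 8.69 (median 6.5) in tumors, against 8.10 to 10.92 (median 9.21) in controls, and fell (-2.24 ± 0.28). The ranges of both genes overlapped between groups. Tbx3 (-1.65), Cited1 (-2.0) and the pioneer factor Foxa1 (-1.61) also fell. Gata3, a regulator of the whole luminal lineage, was the exception and rose (0.67 ± 0.15). Estrogen receptor is also made by mammary stroma and fat, and the fat genes of the same arrays fell in 15 of 15 cases; the part of fat in these falls was not tested.

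Genes of milk and of the alveolar cells that make it rose in 12 of 17 cases and fell in 2. Mfge8, a milk fat globule protein, read 12.81 to 13.58 (median 13.35) in tumors, against 10.48 to 12.66 (median 11.96) in controls, and rose by 1.22 ± 0.14. Kappa-casein Csn3 rose by 1.02 ± 0.13, the folate receptor gene Folr1 by 2.47 ± 0.31, and Elf5, the regulator of the alveolar fate, by 1.18 ± 0.20. Stat5a, which prolactin activates in these cells (-0.81), and the milk fat gene Btn1a1 (-1.32) fell. With the B cell and muscle covariates 5 of the 17 were called higher and 1 lower.

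Basal and myoepithelial genes did not move as a block: 1 of 12 rose and 7 fell. The falls were led by contractile genes, Myh11 (-2.88 ± 0.23), Cnn1 (-2.15), Mylk (-1.29) and Acta2 (-0.82), and by the oxytocin receptor Oxtr (-2.79), and these contractile genes are also made by vascular smooth muscle. The basal keratins differed among themselves: Krt5 (-1.07) and Krt15 (-1.24) fell, and Krt14 (0.75), Krt17 (-0.22) and the basal regulator Trp63 (-0.18) were not called. Lgals7 rose (1.84).

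Among mammary transcription factors 13 of 22 rose and 4 fell. Runx1 read 8.51 to 10.72 (median 9.72) in tumors, against 5.52 to 8.62 (median 7.32) in controls, and rose by 2.18 ± 0.18. Tfap2c (2.25), Klf5 (1.86) and Sox10 (2.08) rose with no overlap, and Tfap2a (1.94), Sox4 (1.57) and Sox9 (1.53) rose. Stat5b (-1.06), Stat5a, Foxa1 and Msx2 (-0.60) fell. Sox10 is also a marker of Schwann cells, whose list rose in 2 of 7 members (Sox10 and Ncmap, 1.62) and fell in 3, led by the myelin gene Pmp22 (-1.85). Of the regulators that drive epithelial-mesenchymal transition, Zeb1 (-1.62 ± 0.17), Twist2 (-1.17), Prrx1 (-1.56), Twist1 (-1.25) and Snai2 (-0.79) fell and Snai1 rose (1.28 ± 0.18). Those factors are also expressed by stromal fibroblasts, of whose 13 list genes 8 fell and 2 rose.

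Matrix genes moved in both directions. Of 22 collagen genes 11 rose and 3 fell. Col11a1, a minor fibrillar collagen, read 9.69 to 12.62 (median 11.22) in tumors, against 4.02 to 8.70 (median 6.41) in controls, and rose by 4.51 ± 0.30 (22.9-fold). Col12a1, which lies on fibril surfaces, read 10.16 to 11.80 (median 10.98) in tumors, against 6.56 to 8.70 (median 7.36) in controls, and rose by 3.28 ± 0.23. Neither overlapped. The major interstitial collagens moved little, with Col1a1 0.72 and Col1a2 0.50 higher and Col3a1 (0.00) not called, and Col5a3 (-0.58), Col15a1 (-0.41) and Col17a1 (-0.86) fell. With the B cell and muscle covariates 5 of the 22 were called higher and 0 lower. Matricellular and cross-linking genes rose in 14 of 17 cases with none lower and a median of 1.41. Tnc, the tenascin of healing and fetal stroma, read 9.01 to 12.58 (median 10.46) in tumors, against 5.54 to 8.66 (median 6.65) in controls, and rose by 3.53 ± 0.33. Dmp1, a matrix phosphoprotein of bone (4.10), the lysyl oxidase Loxl3 (2.46), the lysyl hydroxylase Plod2 (2.32), Ccn1 (1.95) and Thbs1 (2.70) also rose.

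Of the matrix proteases and their inhibitors 11 of 22 rose and 3 fell, and the 3 that fell were all tissue inhibitors of metalloproteinases. Mmp13, a collagenase, read 7.22 to 12.28 (median 10.78) in tumors, against 3.67 to 7.79 (median 4.83) in controls, and rose by 4.77 ± 0.40 (adjusted p 1.38e-10). The ranges overlapped at their ends, and pairs 1 and 2 read 8.65 on tumor array 1 and 3.57 on tumor array 2, against 10.94 on control array 1 and 4.13 on control array 2. Adamts4 (2.39), Mmp10 (1.52), the membrane-bound Mmp14 (1.37), Mmp3 (1.34) and the urokinase receptor gene Plaur (1.23) rose as well. The inhibitors separated sharply: Timp1 read 9.49 to 12.09 (median 10.69) in tumors, against 5.52 to 9.15 (median 7.14) in controls, and rose by 3.26 ± 0.27. Timp4 read 3.5 to 6.93 (median 4.20) in tumors, against 7.84 to 10.64 (median 9.23) in controls, and fell (-4.60 ± 0.30). Both were free of overlap, and Timp3 (-1.13) and Timp2 (-0.51) fell. Among laminins and integrins 9 of 17 rose and 5 fell, with the hemidesmosome integrins Itgb4 (2.52) and Itga6 (1.99), Itgb8 (2.00) and Itgav (0.93) higher and the muscle integrin Itga7 (-1.57) lower.

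The promoter of Mmp13 is shown because this gene had the largest rise among genes that moved alike in at least 22 pairs. The AP-1 motif TGANTCA, which reads alike on both strands and which factors of the Fos and Jun families bind, was searched as above. It occurred in 7 of 16 protease-list genes with a promoter in the table (43.8%), against 7.54% of measured genes and 7.81% of all promoters. Of these 7 genes Mmp7 was not called. The share was higher in the keratinocyte list (5 of 7, 71.4%), where 0 of 10 measured genes rose, and in the eosinophil list (2 of 4, 50%). It was 6 of 14 (42.9%) for the chemokines that draw neutrophils, and lower in the remaining lists. In Mmp13 (chr9:7272264-7272563, plus strand) the match, in capitals, begins at position -35 relative to the start.
Mmp13: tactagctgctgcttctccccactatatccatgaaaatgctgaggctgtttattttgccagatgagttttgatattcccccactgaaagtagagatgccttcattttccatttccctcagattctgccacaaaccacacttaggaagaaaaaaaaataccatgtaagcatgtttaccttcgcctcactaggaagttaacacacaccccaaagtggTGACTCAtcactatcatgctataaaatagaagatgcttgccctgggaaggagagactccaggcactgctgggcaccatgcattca

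Genes of fat and muscle were lower in the tumors. All 15 adipocyte genes fell, with a median of -3.48. Pnpla2, the triglyceride lipase of fat cells, read 9.35 to 11.27 (median 9.72) in tumors, against 11.16 to 13.33 (median 12.56) in controls, and fell (-2.40 ± 0.17). Slc2a4, the insulin-responsive glucose carrier, read 7.11 to 9.58 (median 7.80) in tumors, against 10.06 to 11.66 (median 11.11) in controls, and fell (-2.77 ± 0.21) with no overlap. Aqp7 (-3.51), the adipokine gene Lep (-4.52) and the master regulator Pparg (-4.17) fell as well. Of 10 brown fat genes 8 fell, led by Cox7a1 (-3.78), Prdm16 (-2.60) and Cox8b (-4.27). The first and last of these are also muscle isoforms of cytochrome oxidase subunits, and all 17 skeletal muscle genes fell, among them Casq1 (-3.08), Ryr1 (-3.49) and Eno3 (-2.80). In the 10 earlier pairs alone none of the 17 muscle genes was called, where 18.3% of all genes were called higher and 20.6% lower. Pairs 1 and 2 are among these 10. In pair 1 the muscle list mean was 11.98 on the tumor array, and on the control array it lay under the tumor median of 8.95. In the other 8 earlier pairs the list means were 5.23 to 11.35 (median 8.82) in tumors, against 5.85 to 13.19 (median 12.83) in controls. Controls 6, 20 and 23 of these pairs also lay under the tumor median of 8.95. In the 15 later pairs all 17 muscle genes were called lower, where 28.2% of all genes were called higher and 28.3% lower.

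Genes of energy metabolism were lower in the tumors. Genes of fatty acid and triglyceride synthesis fell in 16 of 18 cases, and those of fatty acid oxidation in 15 of 16, with none higher in either list. Acaca, which makes malonyl-CoA, read 8.51 to 11.42 (median 9.21) in tumors, against 10.75 to 12.92 (median 12.21) in controls, and fell (-2.61 ± 0.19). Mlxipl, the carbohydrate-response factor (-3.65), Acss2 (-3.27), Lpin1 (-2.50) and Dgat2 (-3.82), and on the oxidation side Cpt2 (-2.38), Acadm (-2.06) and Hadha (-1.97), fell too. All 20 genes of the citrate cycle and of branched-chain amino acid breakdown fell, led by pyruvate carboxylase Pcx (-3.12 ± 0.21), Bckdhb (-1.83) and Ogdh (-1.73). Respiratory chain genes fell in 25 of 26 cases, by a smaller median of -0.75, with Sdhb (-1.69) and Ndufs1 (-1.66) foremost. With the B cell and muscle covariates the counts were 15 of 18, 15 of 16, 20 of 20 and 23 of 26 lower, in the same order of lists; fat itself was not among the covariates, and its part was not tested.

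Glycolysis genes were not moved as a group, with 5 of 20 higher and 11 lower, and isoforms of an enzyme differed. Hk1, the hexokinase found in most cells, read 10.65 to 12.55 (median 11.45) in tumors, against 9.48 to 10.51 (median 10.16) in controls, and rose by 1.30 ± 0.13. Hk2, the hexokinase of muscle and fat, read 8.42 to 11.02 (median 9.33) in tumors, against 11.13 to 12.43 (median 11.92) in controls, and fell (-2.31 ± 0.19). Neither pair of ranges overlapped. The same contrast was seen for the aldolases, Aldoc (2.58) against Aldoa (-0.80), and the phosphofructokinases, Pfkp (1.39) against Pfkm (-2.01), the muscle form. The general glucose carrier gene Slc2a1 rose (1.22), and Pfkfb3 (-3.16) and Pdk1 (-1.28) fell. Genes that hypoxia induces were also divided, with 8 of 14 higher and 4 lower. The carbonic anhydrases Car12 (2.95 ± 0.19) and Car9 (2.53 ± 0.18) rose and Vegfa (-1.56 ± 0.12) and Bnip3 (-2.20 ± 0.18) fell, and none of these 4 overlapped between groups. Hif1a rose by 0.63 and the oxygen sensor Egln3 by 1.62, and Angptl4 (-1.37), which is abundant in fat, fell.

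Cholesterol synthesis had 5 of 14 genes higher, among them Sqle (1.14), Idi1 (0.72) and the regulator Srebf2 (0.72), and 7 lower, among them Insig1 (-2.94) and Fdft1 (-1.01). Of genes of the amino acid response 6 of 13 rose and 5 fell. The carriers Slc7a5 (2.23 ± 0.16) and Slc7a1 (1.00) and the pseudokinase Trib3 (2.30 ± 0.17) rose, and the biosynthetic enzymes Psph (-1.09), Asns (-1.03) and Phgdh (-0.98) and the factor Ddit3 (-0.49) fell. Folate and nucleotide synthesis genes rose in 9 of 14 cases and fell in 2, and ribosome biogenesis genes in 14 of 17 with none lower, led by Wdr43 (0.43) and Nop58 (1.06). That last count dropped to 4 of 17 with the B cell and muscle covariates and to 2 of 17 in the earlier pairs, with pairs 1 and 2 among them. Nrf2 targets had 5 of 11 higher, with Nqo1 (1.36) and Gclm (0.83) first, and 3 lower, with the glutathione transferases Gstm1 (-2.08) and Gsta4 (-1.48) first.

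Most genes of the list of endoplasmic reticulum chaperones rose, with a median change of 0.99 over the list. Of 12 genes 10 rose and none fell, and all 10 were without overlap in pairs 3 to 25, against 2.76% of all genes. Hspa5 (BiP), the central chaperone of that compartment, read 13.24 to 13.67 (median 13.42) in tumors, against 10.79 to 12.78 (median 12.45) in controls, and rose by 0.97 ± 0.10 (adjusted p 2.34e-09). Sdf2l1, a partner of BiP, read 8.76 to 10.34 (median 9.53) in tumors, against 6.69 to 8.65 (median 7.73) in controls, and rose by 1.64 ± 0.17. Hyou1 (1.02), Dnajc3 (1.45), Manf (1.31), Creld2 (1.34) and Hsp90b1 (0.85) rose, as did Xbp1 (0.76), the factor that induces many of them. Herpud1 (0.00) and Dnajb9 (0.03), which the same stress is known to induce, were not called. The 10 were also called higher with the B cell and muscle covariates.

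Promoters of 4 of these genes are shown because most genes of the list rose. The endoplasmic reticulum stress element, CCAAT and CCACG with 9 bases of any kind between them (in reverse, CGTGG, 9 bases and ATTGG), was searched on both strands as above. It occurred in 5 of the 10 list genes with a promoter in the table (Hspa5, Hsp90b1, Dnajc3, Calr and Creld2), against 20 of 14453 measured genes (0.138%) and 39 of 32851 promoters (0.119%). The element is in capitals in Hspa5 (chr2:34771840-34772139, plus strand), Hsp90b1 (chr10:86705395-86705694, minus strand, with 2 matches), Dnajc3 (chr14:118937682-118937981, plus strand) and Creld2 (chr15:88819396-88819695, plus strand, where it reads in reverse).
Hspa5: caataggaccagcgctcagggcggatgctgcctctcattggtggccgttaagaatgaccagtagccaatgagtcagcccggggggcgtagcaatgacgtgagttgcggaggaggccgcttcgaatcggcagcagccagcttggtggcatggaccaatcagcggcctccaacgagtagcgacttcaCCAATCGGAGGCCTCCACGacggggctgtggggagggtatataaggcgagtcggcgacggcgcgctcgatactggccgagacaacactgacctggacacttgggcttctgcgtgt
Hsp90b1: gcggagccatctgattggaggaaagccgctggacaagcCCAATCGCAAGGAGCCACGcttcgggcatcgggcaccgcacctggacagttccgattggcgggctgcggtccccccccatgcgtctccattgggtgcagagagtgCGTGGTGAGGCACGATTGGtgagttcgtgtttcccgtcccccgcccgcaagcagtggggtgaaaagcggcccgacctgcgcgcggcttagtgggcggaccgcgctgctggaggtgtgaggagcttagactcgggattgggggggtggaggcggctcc
Dnajc3: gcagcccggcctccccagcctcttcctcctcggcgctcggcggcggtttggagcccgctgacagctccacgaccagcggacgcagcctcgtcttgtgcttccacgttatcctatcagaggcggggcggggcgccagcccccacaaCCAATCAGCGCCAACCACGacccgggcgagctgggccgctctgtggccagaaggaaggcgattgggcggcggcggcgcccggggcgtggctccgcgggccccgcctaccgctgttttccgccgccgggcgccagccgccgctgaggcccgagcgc
Creld2: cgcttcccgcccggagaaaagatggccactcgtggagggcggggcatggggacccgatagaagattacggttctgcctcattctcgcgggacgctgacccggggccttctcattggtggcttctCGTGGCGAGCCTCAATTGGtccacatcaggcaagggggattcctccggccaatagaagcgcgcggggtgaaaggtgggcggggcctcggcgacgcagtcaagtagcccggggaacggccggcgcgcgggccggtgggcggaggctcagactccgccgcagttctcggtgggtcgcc

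**Figure D4:**
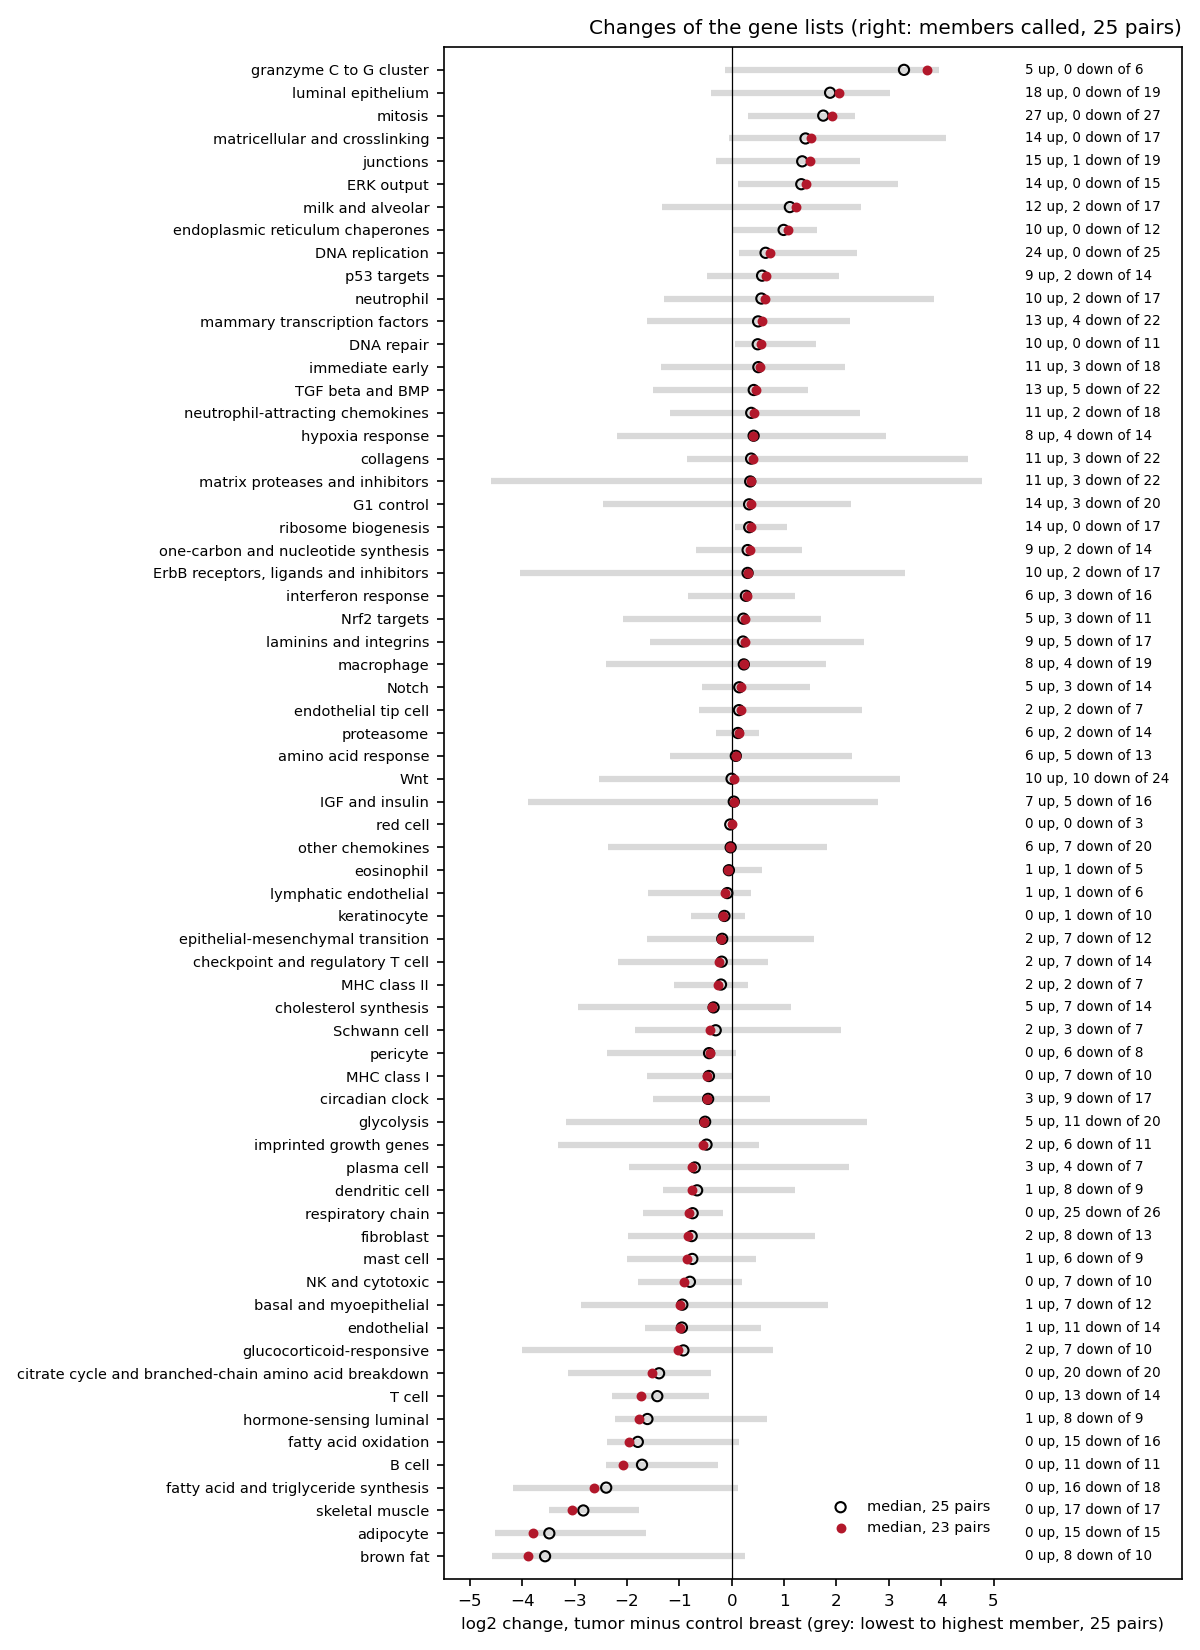
Change of 66 gene lists (log2, tumor minus control): open circles give the median over members in 25 pairs, filled circles the median in 23 pairs, grey bars the range from the lowest to the highest member, and the numbers on the right how many members were called. The medians run from -3.57 (brown fat) to 3.29 (granzymes C to G), and those of luminal, mitosis, ERK and matricellular genes lie above 1.

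Lymphocyte genes fell, with most calls in the later pairs. Of the T cell list 13 of 14 fell and of the B cell list 11 of 11. Within the earlier pairs 0 of 14 and 1 of 11 were called lower, and within the later pairs 14 of 14 and 11 of 11. The earlier counts include pairs 1 and 2. Tumor array 2, which had control-like levels, read 8.72 for the T cell list mean and 8.83 for the B cell list mean. On tumors of the other 8 earlier pairs the highest means were 7.0 and 7.14. With the B cell and muscle covariates the T cell list had 3 members higher and none lower, with a median of 0.07. Both lymphocyte lists were high mainly on controls of the later run, so a fit with the B cell difference cannot decide the T cell change. Of genes of natural killer and cytotoxic cells 7 of 10 fell, with Gzma (-1.78), Ncr1 (-1.0) and Tbx21 (-1.03) first. Medians of their list means were 5.24 in later tumors, against 6.47 in later controls. In the earlier run without pairs 1 and 2 they were 5.51 in tumors, against 6.02 in controls. Checkpoint genes fell in 7 of 14 cases and rose in 2. The median change of the checkpoint list was 0.10 in the earlier pairs, with pairs 1 and 2 among them, and -0.37 in the later pairs. Cd274 (PD-L1), a ligand that restrains T cells, read 5.40 to 7.11 (median 5.95) in tumors, against 7.30 to 9.24 (median 8.55) in controls, and fell (-2.17 ± 0.21) with no overlap. Ido1 fell (-2.13), and Havcr2 (0.69) and Tnfrsf18 (0.55) rose. The change of Cd274 in later minus earlier pairs was -1.09 (adjusted p 0.0966, limma).

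The granzyme genes C to G, neighbours in the granzyme B cluster of the mouse, went against that fall. Gzme read 6.89 to 12.08 (median 9.65) in tumors, against 4.38 to 6.0 (median 4.91) in controls, and rose by 3.85 ± 0.39. Gzmc (2.76), Gzmd (3.95), Gzmg (3.53) and Gzmf (3.05) rose too, and Gzmn (-0.13) was not called. These genes are near-identical copies, so the probe sets may share signal and the 5 values are uncertain as 5 separate results. Gzmb (0.20) and Prf1 (-0.01), the usual partners in killer cells, were not called.

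Myeloid genes were mixed. Of 19 macrophage genes 8 rose and 4 fell. The lipid receptor Trem2 (0.97 ± 0.12), Fcgr1 (1.18), Msr1 (0.62) and the complement genes C1qa (1.80) and C1qb (0.63) rose, and Cd163 (-1.19 ± 0.23), Mrc1 (-0.54), Mertk (-0.38) and Marco (-2.40) fell. The change of Marco in later minus earlier pairs was -4.09, and its sign turned in the earlier IDs and with the B cell and muscle covariates. Csf1r (0.04) and Cd68 (-0.18), general markers of the lineage, were not called. Of the dendritic cell genes 8 of 9 fell, led by Zbtb46 (-0.66), Cd209a (-0.80) and Siglech (-1.31), and Itgax, the integrin CD11c, rose (1.21 ± 0.13). The dendritic list means were lower in tumors only in the later run. Their median was 6.40 in later tumors, against 7.16 in later controls. In the earlier run without pairs 1 and 2 it was 6.42 in tumors, against 6.39 in controls. With the B cell and muscle covariates 1 of the 9 was called lower. Neutrophil genes rose in 10 of 17 cases and fell in 2. Pglyrp1, a granule protein that binds peptidoglycan, read 9.89 to 13.10 (median 11.53) in tumors, against 5.84 to 9.32 (median 7.25) in controls, and rose by 3.86 ± 0.24. Lcn2 (1.79), S100a8 (2.56) and Padi4 (1.49) rose, Il1r2 (-1.29) and Elane (-0.25) fell, and Cxcr2 (-0.05), the chemokine receptor of mature neutrophils, was not called. Lcn2 is also made by epithelium. Mast cell genes fell in 6 of 9 cases (Cpa3 -2.0, Cma1 -1.99, Mcpt4 -1.74), while Kit rose (0.46).

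Chemokines that draw neutrophils, and the cytokines listed with them, rose in 11 of 18 cases and fell in 2. Cxcl1 read 9.53 to 12.07 (median 10.69) in tumors, against 7.39 to 10.41 (median 7.73) in controls, and rose by 2.46 ± 0.21. Il1b (2.15), Cxcl5 (2.05) and Cxcl2 (1.34) rose, and Tslp (-1.19) and Csf1 (-0.18) fell, the latter with its sign turned when all probe sets were averaged by their median. The other chemokines had 6 of 20 higher and 7 lower. Cx3cl1 (1.40) and Ccl8 (1.81) rose, and those that draw T cells, Cxcl9 (-2.12 ± 0.28) and Ccl5 (-2.25 ± 0.39), fell along with the scavenger receptor gene Ackr3 (-1.88). Antigen presentation by MHC class I fell in 7 of 10 genes, led by Psmb9 (-1.16) and the regulator Nlrc5 (-1.63), and 1 of the 10 was called lower with the B cell and muscle covariates. Interferon-response genes had 6 of 16 higher, first Oas1a (1.21), and 3 lower, first Ifit3 (-0.83).

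Endothelial genes fell in 11 of 14 cases and rose in 1. Kdr, the main VEGF receptor, read 7.33 to 8.65 (median 7.92) in tumors, against 7.73 to 9.95 (median 9.45) in controls, and fell (-1.29 ± 0.13). Robo4 (-1.33), Cdh5 (-1.39) and Sox17 (-1.66) fell, and Plvap, which forms the diaphragms of leaky vessels, rose (0.56 ± 0.10). Of 7 endothelial tip cell genes 2 rose and 2 fell, and without pairs 1 and 2 the count was 1 higher and 2 lower. Of the 2 ligands in that list that were called with the smallest p, placental growth factor Pgf rose (2.49 ± 0.23) and Angpt2 fell (-0.45). Pericyte genes fell in 6 of 8 cases, led by Abcc9 (-1.0) and Rgs5 (-0.90), and of 6 lymphatic endothelial genes Lyve1 fell (-1.60), Pdpn rose (0.37) and the other 4 were not called. Fibroblast genes of resting stroma, Dpt (-1.98 ± 0.24) and Pi16 (-1.49), fell, and Fbln2 (1.59) and Fbln1 (0.45) rose.

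Signalling lists were divided within themselves. Of 22 TGF beta and BMP genes 13 rose and 5 fell. The feedback inhibitors Skil (1.32) and Smad7 (0.82), the activin subunits Inhba (1.46) and Inhbb (1.43) and Id2 (1.19) rose, and Bmp4 (-1.50 ± 0.13), Tgfbr3 (-1.0) and Id3 (-1.17) fell. Of 24 Wnt genes 10 rose and 10 fell. The inhibitor Nkd2 rose by 3.21 ± 0.27, with Lgr4 (0.79), Sfrp1 (1.31) and Wnt5b (1.45). Axin2, the most general target of beta-catenin, read 5.27 to 7.54 (median 6.36) in tumors, against 7.84 to 8.72 (median 8.42) in controls, and fell (-1.77 ± 0.17) with no overlap. Sfrp5 (-1.07), Nkd1 (-0.99) and the ligand gene Rspo1 (-2.53) fell too. Among Notch genes the ligand gene Dll1 (1.49) and the targets Hes1 (1.23) and Hey1 (1.48) rose, while Jag1 (-0.40), Jag2 (-0.57) and Lfng (-0.51) fell, with 5 of 14 higher and 3 lower. The sign of Jag1 turned when all probe sets were averaged by their median.

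Of the genes of insulin-like growth factor and insulin signalling 7 of 16 rose and 5 fell. Igf2r, which clears Igf2, rose by 2.08 ± 0.18 with no overlap and Igfbp2 rose by 2.80 ± 0.27, while Igf1 (-1.97 ± 0.23), the growth hormone receptor gene Ghr (-1.56), Igfbp6 (-2.78) and Pck1 (-3.89), which fat cells use to make glycerol, fell. Imprinted growth genes fell in 6 of 11 cases, led by Ndn (-2.12) and Sgce (-1.98) and with the largest fall in Nnat (-3.32), and rose in 2, Peg3 (0.52) and Meg3 (0.42). The sign of Peg3 turned when all probe sets were averaged by their median and in the earlier IDs. That of Meg3 turned without probe sets named _x_at or _s_at. Clock genes fell in 9 of 17 cases and rose in 3. The output factor Tef (-1.27 ± 0.10, with its sign turned when all probe sets were averaged by their median) and the clock repressors Cry2 (-1.07), Per3 (-1.21) and Per2 (-0.99) fell, and Arntl (0.42) of the activating arm rose along with Bhlhe41 (0.74) and Hlf (0.60). The time of day at collection is not given in the sources used here. Glucocorticoid-responsive genes fell in 7 of 10 cases, with Hsd11b1, the enzyme that regenerates the active hormone (-2.82 ± 0.23), Zbtb16 (-2.61) and Pdk4 (-4.01) first, and Sgk1 (0.78) and Fkbp5 (0.60) rose.

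The genes with the largest rises also included several not named above. Among the 25 largest rises in at least 22 pairs, Ptgs2 (cyclooxygenase that makes prostaglandin precursors) read 6.92 to 11.89 (median 9.77) in tumors, against 4.53 to 8.21 (median 5.27) in controls, and rose by 3.81 ± 0.32. Slc6a15, an amino acid carrier known from brain, rose by 3.63 ± 0.31, the water channel gene Aqp5 by 3.75 ± 0.27, the spindle gene Psrc1 by 3.73 ± 0.30 and the adhesion adaptor gene Fblim1 by 3.80 ± 0.27. Comp, a cartilage matrix protein, rose in 25 of 25 pairs by 3.57 ± 0.43 and Col9a1, another cartilage gene, by 3.54 ± 0.26. The set also held Stac2 (3.44), Shf (3.42), C1qtnf3 (3.36) and the genes 2310057J18Rik (4.0) and 1500002F19Rik (3.71). Among the 25 largest falls, beside fat genes already named, were the synuclein gene Sncg (-4.39 ± 0.41), the fatty acid binding protein gene Fabp3 (-4.34 ± 0.39), glycogen synthase Gys2 (-4.24), cysteine dioxygenase Cdo1 (-4.22), the lipase gene Pnpla3 (-4.14), Acacb (-4.17), Mrap (-4.02), Adig (-4.23) and amylase Amy1 (-4.20).

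Of the 15 genes with the largest SD over tumors 3 to 25, 12 fell into 2 sets. The first set is made of products of salivary glands, and it was highest on the tumors of 2 pairs. Bpifa2 read 14.10 and 14.04 on tumors 13 and 25, against 11.55 and 11.26 on their matched controls. Cst10 read 14.18 and 13.61 on those tumors, against 9.51 and 8.72 on those controls. Amy1, Chia1, Smr3a, Dnase1, Dcpp1 and Scgb1b27 showed the same 2 tumors on top, though Amy1 was high on nearly all controls as well, and control array 4 held a weaker signal of some of them (Bpifa2 6.68). Both mice of each of these pairs carried the signal, and its cause was not tested. Without pairs 13 and 25, an alternative added after the data were seen, 5340 genes were called higher and 5647 lower.

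The second set held Comp, Ceacam10, Cd177 and Fetub. All 4 were high on tumors 3, 7, 10, 12, 15, 16, 17, 19 and 22, where Comp read between 11.97 and 13.60. Tumors 5 (12.35) and 24 (11.38) also had high Comp. The matched controls of tumors 3, 10, 15 and 22 read 7.41, 7.41, 7.49 and 8.17 for Comp, and control array 1 read 9.78. Over all pairs Ceacam10 rose by 1.58 ± 0.46, Cd177 by 2.29 ± 0.47 and Fetub by 2.30 ± 0.43. These sets were put together after their values were seen, so no test is given for them. The other three of the 15 were the brown fat gene Ucp1 (4.13 to 12.31 over tumors 3 to 25), Glycam1 (4.31 to 12.39) and the muscle myosin gene Myh4 (3.98 to 12.92). Among the controls the 15 most variable genes were mostly muscle genes, such as Myh4, Mybpc2, Ckmt2, Myl2 and Pvalb, with the B cell gene Ms4a1 and with Glycam1, a product of both milk and lymph node vessels.

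**Figure D5:**
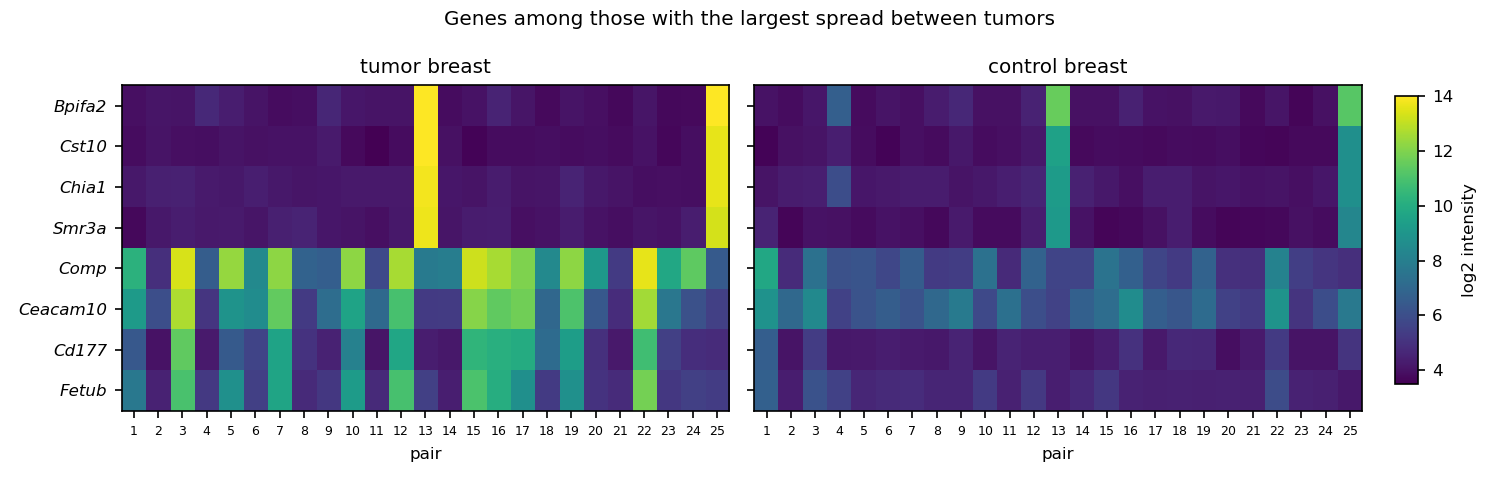
Levels (log2 intensity, colour) of 8 genes that varied most between tumors, by pair number, with tumor arrays in the left panel and control arrays in the right one. Bpifa2, Cst10, Chia1 and Smr3a are high on tumors 13 and 25 and raised on their controls, and Comp, Ceacam10, Cd177 and Fetub are high together on 9 tumors.

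Among the 23 tumors of pairs 3 to 25 the Erbb2 level was set against 6 other genes, with p adjusted over the 6. Etv5 followed Erbb2 (Pearson r 0.638, permutation p 0.00088, adjusted 0.00528; Spearman rho 0.634, adjusted 0.00954). Adipoq ran against it (r -0.585, permutation p 0.0036, adjusted 0.0108; rho -0.576, adjusted 0.0144). Dusp6 (r 0.450, adjusted p 0.0544 by permutation), Mki67 (r 0.437, adjusted p 0.0544 by permutation), Krt18 (r 0.289) and Esr1 (r 0.02) did not pass. Without the 2 tumors farthest from the median of Erbb2 (tumors 21 and 22), r was 0.476 for Etv5 (adjusted permutation p 0.0869) and -0.562 for Adipoq (adjusted permutation p 0.0523). Neither passed by Pearson's r, while both passed by rank (adjusted permutation p 0.0364 each). Within the earlier run (n = 8) r was 0.512 for Etv5 (exact permutation p 0.183) and -0.730 for Adipoq (exact permutation p 0.0414). Within the later run (n = 15) r was 0.648 for Etv5 (permutation p 0.0085) and -0.698 for Adipoq (permutation p 0.00368). For Krt18 and Mki67 the runs differed in sign. Krt18 had r 0.807 in the earlier run (exact permutation p 0.0152) and -0.14 in the later run (permutation p 0.623). Mki67 had -0.15 in the earlier run (exact permutation p 0.711) and 0.617 in the later run (permutation p 0.0145). Esr1 also differed in sign, with -0.515 in the earlier run and 0.372 in the later run, and Dusp6 had 0.522 and 0.384. These p within runs are not adjusted, and the differences between runs were not tested.

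The change in breast was compared with the change in liver and spleen for 24 pairs, linked by sample IDs that agree except for the last digit. The labels do not state that such arrays come from the same mouse, and the tests below rest on that link. The change differed between breast and liver for 7564 genes (41.6%), with 18.2% of all genes higher in breast and 23.3% lower. It differed between breast and spleen for 9803 genes (53.9%), with 24.5% higher in breast and 29.4% lower (limma on the difference of within-pair changes). The 2 comparisons share the breast arrays. Etv5 changed by 2.89 in breast, against 0.12 in liver (difference 2.77, adjusted p 3.88e-11) and -0.51 in spleen (difference 3.40, adjusted p 1.49e-11). Timp1 changed by 3.25 in breast, against 0.53 in liver and 1.31 in spleen, and both differences passed. Of the neutrophil genes, S100a8 changed by 2.50 in breast, against 5.19 in liver, a difference of -2.69 (adjusted p 7.35e-07), and Prtn3 by 1.08 in breast, against 5.73 in liver. Pglyrp1 changed by 3.86 in breast, against 1.98 in liver. Cxcl1 changed by 2.44 in breast, against 2.95 in liver, and that difference of -0.51 did not pass (adjusted p 0.181). Of the mitosis genes, Ect2 changed by 2.25 in breast, against 0.38 in liver, and its difference from spleen (1.10) passed as well, whereas that of Bub1 from spleen (0.47, adjusted p 0.247) did not. Hspa5 changed by 0.96 in breast, against 0.44 in liver, where the difference did not pass (adjusted p 0.163), and -0.01 in spleen, where it did. The clock gene Cry2 fell by more in breast (-1.06) than in liver (-0.22) or spleen (-0.14), and both differences passed.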

How the data were processed

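The deposited values are linear probe set intensity, already summarised by the authors. How they were summarised and normalized is not given here by label or header. Breast array medians lay between 58.0 and 68.6, and the number of arrays limits the precision. A floor of 11.3, the 5th percentile over the whole deposited table, was set before taking log2. Of 45101 probe sets, 34958 had 1 gene symbol, updated through Entrez numbers to GRCm38.p6, and the probe set with the highest mean stood for a gene (18194 genes). The sources used here name no build for the array, so only RefSeq promoters carry coordinates.

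Tumor and control were compared with limma 3.58.1 (R 4.3.3), with the matched pair from the labels as a block, Benjamini-Hochberg adjustment over all genes and a threshold of 0.05. Deviations from group means correlated with a median of 0.08 within pairs (10 of 25 above 0.1), against -0.02 for other pairings. Each array is taken as a separate mouse. The differences between earlier and later pairs and between tissues were fitted on within-pair changes. Tissues may have been normalized separately, so only changes were set side by side. The test was tried on simulated data. Correlations, tables and figures were made in Python 3.11.15 (scipy 1.17.1, pandas 2.3.3, numpy 2.4.6, matplotlib 3.10.9), with 100000 permutations.

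Named were Erbb2, the 25 largest rises and 25 largest falls among called genes moving alike in at least 22 pairs, members of 66 lists (called members with the smallest p first, and those against their list's majority), the 15 genes with the largest SD per group and the 5 largest differences each way in the other tests. Some further list members were named after their values were seen. The arrays, lists and tests were chosen with earlier results of these data known. Of 1010 list genes 950 were measured. Alternatives covered the block, the pairs kept, normalization, the floor, the filter, the probe sets and covariates.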

Additional observations from a re-analysis of the deposited data

Results flagged for a closer look

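The change from control to tumor differed between the later and the earlier sample IDs for 725 genes (3.98%), by limma's test of the difference. The largest positive differences (later minus earlier change, log2) were 2.12 for Cited4, 1.82 for Mia, 1.80 for Atp6v1c2, 1.79 for Col9a2 and 1.78 for Thbs1. The largest negative ones were -4.77 for Glycam1, -4.44 for Ighv14-2, -4.37 for the B cell gene Ms4a1, -4.09 for Marco, a macrophage receptor, and -3.85 for Pou2af1, a B cell factor. The B and T cell list means of the controls moved with the ID run, as given above, and their part was not tested. Without pairs 1 and 2 the count was 187.

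The breast change differed from the liver change of the arrays linked by sample ID by 4.84 for Mmp13, 4.62 for Cyp4a14, 4.59 for Col11a1, 4.28 for Tc2n and 4.19 for Dmp1, and by -5.42 for Orm1, -5.35 for Armcx4, -4.82 for Tmem45b, -4.66 for Pparg and -4.65 for Prtn3. It differed from the spleen change by 4.82 for Mmp13, 4.49 for Col11a1, 4.29 for Tc2n, 4.21 for Stac2 and 4.15 for Dmp1, and by -6.96 for Orm1, -5.69 for Aldh1a7, -5.45 for Pygl, -4.94 for Abcd2 and -4.76 for Ucp1. Each of these differences passed limma's test of the difference itself.

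Among the 10092 probe sets with no gene name or with several, which no comparison above used, 4722 (46.8%) were called between tumor and control in the same fit.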

How the results depend on the processing

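The fit with no replicate block, which leaves out the matched pairing, called 5218 genes higher and 5605 lower, and no setting of the block changed a count by more than 1.5 times. Beside the 5477 higher and 5879 lower calls, the earlier IDs alone (10 pairs, with pairs 1 and 2 among them) gave 3338 and 3747. Leaving out genes under the median level gave 2993 lower calls among 9097 genes tested. Both settings test fewer pairs or genes by construction. Alternatives added after seeing the data gave 3258 and 3877 (9 pairs with a B cell list mean under 7 on both arrays) and 2806 and 3223 (B cell and muscle list differences as covariates). Without pairs 1 and 2, 187 genes differed between later and earlier pairs. Over all 25 tumors the relations of Erbb2 with Dusp6 (r 0.654, adjusted permutation p 0.00146) and Krt18 (r 0.663, adjusted permutation p 0.00147) passed, and that with Esr1 turned negative (r -0.383). Without tumors 21 and 22 the r was 0.476 for Etv5, -0.562 for Adipoq and -0.252 for Esr1. The planned setting that leaves out pairs by high muscle or lymphoid content of their control was not run, because 0 controls exceeded the limit.

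Of 351 named genes, direction and call were kept by 345 with no replicate block, by all 351 without pairs 1 and 2, by 350 without pairs 1, 2 and 4, 350 with quantile normalization, 349 with arrays centred on their median, 340 with the median of all probe sets, 327 with the Gapdh 3 prime to 5 prime ratio as a covariate, 299 in the earlier IDs and 299 with the B cell and muscle covariates, the lowest 2. Signs turned in the earlier IDs for Marco (0.051), Ms4a1 (0.22) and Peg3 (-0.14). With the median of all probe sets they turned for Csf1 (0.20), Jag1 (0.069), Peg3 (-0.040) and Tef (0.071), and without probe sets named _x_at or _s_at for Meg3 (-0.070). With low B cell content Col1a1 (-0.012) and Pdpn (-0.045) turned, and with the covariates Kit (-0.058), Marco (0.23), Ms4a1 (0.53), Mybpc2 (0.091), Myh4 (0.69) and Myl2 (0.35) turned. Ms4a1 is a B cell gene and Mybpc2, Myh4 and Myl2 are muscle genes, while the covariates were the B cell and muscle differences themselves. That fit therefore cannot decide the direction of B cell and muscle genes. The same holds for T cell genes, whose list, like the B cell list, was high mainly on controls of the later run. Except where stated above, the causes were not tested.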

Other observations

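Expressed genes of chromosome 4 were lower on some tumors (578 genes with a mean log2 level above 7, computed after seeing the data). The measure was the median deviation from each gene's median over tumors 3 to 25, relative to the other chromosomes. For controls each gene's median over controls 3 to 25 was used. Tumors 3 and 22 read -0.37 and -0.32, tumors 15, 17, 16 and 19 between -0.14 and -0.09, and tumors 6 and 25 0.12 and 0.13. Controls lay between -0.02 and 0.03 for that chromosome. On the other chromosomes tumors lay between -0.19 and 0.14 and controls between -0.11 and 0.12. Tumors 3 and 22 were also the arrays with the highest Comp. These are values of single arrays with no test.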
